A study of Mus musculus with 8 samples.

Results

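Chemokine ligands are small secreted proteins that bind receptors on white blood cells and set the direction in which these cells move. Every gene symbol of the files that has the form of a chemokine ligand name (Ccl with a number, Cxcl with a number, Cx3cl1 or Xcl1) was taken, whatever its level, which gave 39 symbols among 23238. Ccl21a, Ccl21b and Ccl21c are copies of one gene that share reads, so they were counted once, through the copy with the most reads, which was Ccl21a. This left 37 chemokine ligands, of which 22 have 2 adjacent cysteines (Ccl), 13 have 1 residue between these cysteines (Cxcl), and the others are Cx3cl1 and Xcl1.

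The RNA came from stromal cells of the uterus of ovariectomized mice, strain C57BL/6-ICR, whose own supply of ovarian hormones had thus been removed. Control mice, labelled Atg7f/f, carried floxed and intact Atg7, a gene needed for autophagy. In the other mice, labelled Atg7d/d, Atg7 was deleted by Cre recombinase driven by Amhr2, which uterine mesenchyme expresses (Atg7f/f;Amhr2cre in the series title). Mice of each genotype were injected with oil or with estradiol (E2), the main estrogen. The 2 libraries of each of the 4 groups are numbered in the labels, and the groups are called here control oil, control estradiol, deleted oil and deleted estradiol. Age, estradiol dose, time after injection and the way the stromal cells were separated are not given in the labels. The labels give no mice with Cre and intact Atg7, so effects of Cre and of the deletion cannot be told apart. Nothing in the labels says that the libraries of a group came from different animals, so p-values measure the spread between these libraries, which may be technical.

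As background, the chemokines fall into groups by the cells they attract. Several Ccl proteins draw monocytes and eosinophils, the Cxcl proteins encoded beside Cxcl1 draw neutrophils, and Cxcl9, Cxcl10 and Cxcl11 draw T cells after interferon. Others, such as Cxcl12 and Ccl21, are made at rest and position cells in tissues and lymph vessels. In the rodent uterus estrogen is known for bringing in eosinophils and other leukocytes. NF-kB, a transcription factor of inflammation, drives many chemokine genes.

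Library totals ran from 5458390 to 6951080 reads, of which 7645 to 11163 belonged to chemokine ligands. Levels are in CPM, reads per 1000000 reads of a library whose size was scaled by the trimmed mean of M-values (TMM). Since the library kit reads only the 3′ ends of transcripts, they were not divided by gene length. Atg7 had 20 to 33 reads in every library with no lower count in the deleted groups (20 to 32 reads in control, 21 to 33 in deleted). These 3′ end reads do not test a deletion of internal exons. Fibroblast markers were present in all libraries, none of the 13 at 0, and 2158 to 2649 summed CPM with oil and 6211 to 8777 with estradiol in control stroma, and 2564 to 3206 with oil and 8337 to 9012 with estradiol in deleted stroma. Markers of epithelium were present too, at 6351 to 18493 summed CPM over 15 genes with oil and 1438 to 3031 with estradiol in control stroma, and 4980.1 to 11537 with oil and 1435 to 1955 with estradiol in deleted stroma. Library 1 was the higher in both oil groups, and the first control oil library was the highest of all. Smooth muscle markers were at 1597 to 3515 summed CPM with oil and 6433 to 6588 with estradiol in control stroma. In deleted stroma they were at 3050 to 4017 with oil and 6212 to 7156 with estradiol. Blood endothelium markers ran from 1417 to 2140 summed CPM over all libraries. In such bulk RNA, fewer cells of a type and less RNA per cell cannot be told apart.

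RefSeq promoter windows (build GRCm38.p6, 250 bases before to 50 after a transcription start) were given for 26 of the 37 genes. Ccl2, Ccl4, Ccl5, Ccl7, Ccl11, Ccl24, Ccl26, Cxcl5, Cxcl11, Cxcl16 and Cxcl17 had none and were not searched for motifs. Sequence is shown for Cxcl1, Cxcl2, Cxcl3 and Cxcl10, which were chosen because they hold a motif that other promoters seldom hold. The other Cxcl genes with a window, Cxcl9, Cxcl12, Cxcl13, Cxcl14 and Cxcl15, did not hold it. The NF-kB consensus of 10 bases was found, on either strand, in 7 of the 26 genes (26.9%), against 5.14% of 27025 genes with a window. These 27025 leave out the windows of 1 chromosome, which holds none of the chemokine ligands taken here. The 7 were Cxcl1, Cxcl2, Cxcl3, Cxcl10, Ccl9, Ccl20 and Ccl27a. Cxcl1, Cxcl2 and Cxcl3, neighbours on chromosome 5, held the same 10 bases, shown in capitals with 12 bases on each side, 5′ to 3′ on the plus strand. They lie 71, 97 and 73 bases before the start in Cxcl1, Cxcl2 and Cxcl3, and the minus strand matches as well 1 base further on. The capitals are at chr5:90891174-90891183, chr5:90903802-90903811 and chr5:90786028-90786037. Ccl20 is set beside them for contrast, with a minus-strand match 80 bases before its start (chr1:83116686-83116695), also printed on the plus strand.
Cxcl1: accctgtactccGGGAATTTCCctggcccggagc
Cxcl2: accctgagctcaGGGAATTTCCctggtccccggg
Cxcl3: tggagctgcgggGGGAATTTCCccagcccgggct
Ccl20: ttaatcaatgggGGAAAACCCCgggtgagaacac

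The window of Cxcl10 (chr5:92348840-92349139, minus strand) held 3 of the 4 motifs searched, as the capitals show from left to right: an interferon-stimulated response element (GAAANNGAAA), 2 NF-kB matches and an AP-1 site (TGANTCA). 
Cxcl10: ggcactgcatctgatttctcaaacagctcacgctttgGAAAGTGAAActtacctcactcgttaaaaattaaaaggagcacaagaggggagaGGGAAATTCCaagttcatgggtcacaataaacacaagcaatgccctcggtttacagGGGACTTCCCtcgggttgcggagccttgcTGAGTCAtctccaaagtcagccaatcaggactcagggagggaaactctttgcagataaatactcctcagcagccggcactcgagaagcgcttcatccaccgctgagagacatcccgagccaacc

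GAAANNGAAA stood in 11.5% of the 26 genes and 3.99% of the genes with a window counted above. Besides Cxcl10 these were Ccl19 and Cxcl14. TGANTCA stood in 23.1% (Ccl9, Ccl27a, Ccl27b, Ccl28, Cxcl9 and Cxcl10) against 8.97%. The full estrogen response element (GGTCANNNTGACC) was in none of the 26 and in 0.074% of the genes counted above. These matches describe letters in short windows and say nothing of binding.

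Of the 37 genes, 27 had enough reads for the test and 10 did not. The 10 were Ccl1, Ccl17, Ccl19, Ccl22, Ccl24, Ccl26, Cxcl3, Cxcl9, Cxcl11 and Cxcl13. Their highest level in any library was 2.99 CPM, against 3.01 CPM for the peak library of the tested gene nearest to the limit, Ccl27b. Ccl26 had no read in any library, and Ccl19, which guides cells into lymph nodes, had 1. Among the tested genes, 22 either passed a test or reached a mean of 10 CPM in a group. The highest group means were those of Cxcl1 (356 ± 11.1 CPM in control estradiol, mean ± SD, n = 2 libraries, as for all means here), Cx3cl1 (349 ± 169 in control oil) and Cxcl12 (248 ± 74 in control oil).

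**Figure D1:**
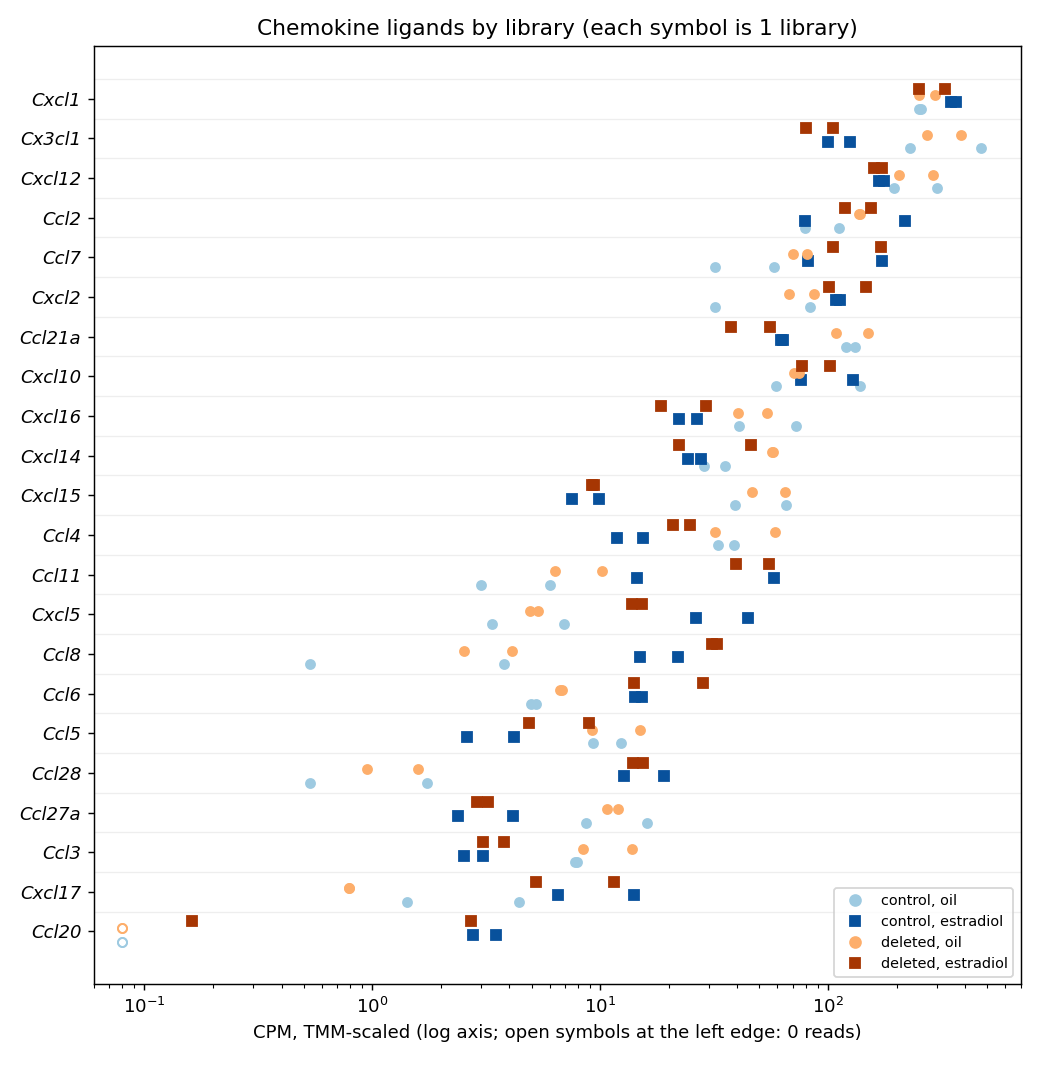
CPM (log axis) of the 22 chemokine ligands that passed a test or reached 10 CPM, with 1 symbol per library and colours for the 4 groups. Circles (oil) and squares (estradiol) stand apart for genes such as Ccl28 and Cxcl15 and overlap for Ccl2 and Cxcl10.

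Estradiol raised some chemokine genes and lowered others in both genotypes. In control stroma 7 of the 27 tested genes rose (Ccl28, Ccl8, Ccl11, Cxcl5, Ccl6, Ccl7 and Ccl20) and 8 fell (Cxcl15, Ccl27a, Ccl5, Cx3cl1, Ccl3, Ccl4, Cxcl16 and Ccl21a), with 12 not past the threshold of 0.05. Of all 13347 tested genes, 29.8% passed in this comparison, 15.8% upward and 14.0% downward. Ccl20, with no read in any oil library, could be found only to rise. In Atg7-deleted stroma 6 rose (Ccl28, Cxcl17, Ccl8, Ccl11, Ccl6 and Cxcl5) and 6 fell (Cxcl15, Ccl27a, Cx3cl1, Ccl3, Ccl21a and Ccl4), against 24.3% of all genes, 13.1% upward and 11.2% downward. The comparisons in the 2 genotypes share no library, but both tests take the spread from all 8 libraries, so their calls are not independent. The 2 comparisons had 11 calls in common, all in the same direction, which is 73.3% of the control calls and 91.7% of the deleted calls. The sign of the change was the same in both genotypes for 26 of the 27 genes, the exception being Ccl2. The same shares over all tested genes are not given here, so these counts are not shown to be particular to chemokine ligands. The median log2 fold change of the 27 was 0.49 in control and 0.01 in deleted stroma, beside 0.01 and 0.02 over all tested genes. At an unadjusted p below 0.05 there were 18 chemokine ligands in each genotype, against 42.7% of all genes in control and 39.1% in deleted stroma. Oil and estradiol libraries did not overlap for 12 higher and 11 lower genes in control stroma, and for 12 higher and 12 lower genes in deleted stroma. Over all tested genes 65.5% and 68.2% did not overlap.

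The calls in control stroma rested on both control estradiol libraries, being 5 in all without the first (Ccl8, Ccl28, Cxcl5, Ccl4 and Cxcl15) and 9 without the second, of which 8 were among the 15. In deleted stroma there were 5 without the second deleted oil library and 5 without the first deleted estradiol library. Ccl8, Ccl28 and Cxcl15 passed in both genotypes under all 16 alternatives.

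**Figure D2:**
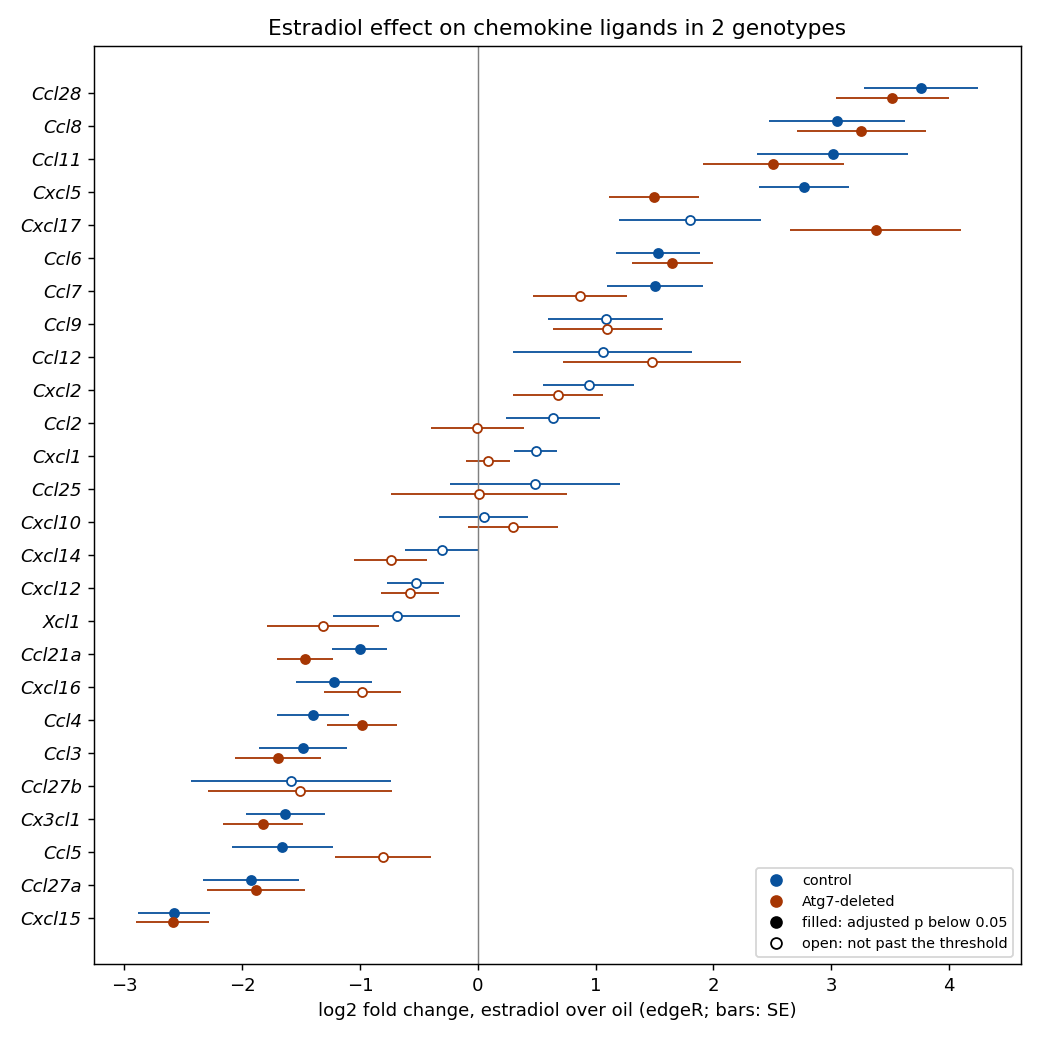
Log2 fold change of estradiol over oil for 26 tested chemokine ligands (Ccl20, with no read in oil, is left out), with SE bars, in control (blue) and Atg7-deleted (brown) stroma. Filled symbols have an adjusted p below 0.05, and Ccl28 and Cxcl15 form the 2 ends of the order.

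In a chromosome 11 cluster of monocyte and eosinophil attractants, Ccl11 and Ccl8 rose with estradiol in both genotypes, Ccl7 in control stroma, and Ccl2 and Ccl12 passed in neither. This cluster holds Ccl2, Ccl7, Ccl11, Ccl12, Ccl8 and Ccl1 in that order within 270.1 kb (mm10, GENCODE M21). Ccl11 (chr11:82057823-82062955, plus strand), eotaxin, the main attractant of eosinophils through Ccr3, stood at 3.0 and 6.02 CPM with oil and 57.7 and 14.4 with estradiol in control stroma, and 6.32 and 10.2 with oil and 54.9 and 39.6 with estradiol in deleted stroma. All estradiol libraries lay above all oil libraries, with the first control estradiol library far above library 2. The log2 fold changes were 3.01 ± 0.64 (adjusted p = 0.00923) in control and 2.51 ± 0.60 (adjusted p = 0.0174) in deleted stroma (with SE, from edgeR, as throughout). The control call ended without the first control estradiol library (1.69, adjusted p = 0.0552, and 3.69, adjusted p = 0.00485 without the second). The deleted call ended without each of the 4 deleted libraries in turn (2.21 to 2.90, adjusted p = 0.0528 to 0.107).

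Ccl8 (chr11:82115185-82116799, plus strand), a monocyte attractant of the same family, stood at 3.79 and 0.531 CPM with oil and 21.9 and 14.9 with estradiol in control stroma, and 2.53 and 4.1 with oil and 32.6 and 31.1 with estradiol in deleted stroma. No oil library came near an estradiol library. The changes were 3.05 ± 0.57 (adjusted p = 0.00583) in control and 3.26 ± 0.55 (adjusted p = 0.00452) in deleted stroma. The control value rests on few oil reads, 24 and 3: it was 5.1, adjusted p = 8.81e-04 without the first control oil library and 2.25, adjusted p = 0.00382 without the second.

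Ccl7 (chr11:82045712-82047525, plus strand), a ligand of Ccr1, Ccr2 and Ccr3, had 31.9 and 58.2 CPM with oil and 173 and 81.4 with estradiol in control stroma, and 80.8 and 70.4 with oil and 172 and 105 with estradiol in deleted stroma. The groups of each genotype did not overlap. Only the control change passed, at 1.5 ± 0.41 (adjusted p = 0.0237), and the deleted value was 0.87 ± 0.40 (adjusted p = 0.139), while the difference between them was -0.63 ± 0.56 (adjusted p = 1.0). The control call ended without the first control estradiol library (0.86, adjusted p = 0.187), without the first control oil library (1.17, adjusted p = 0.0829) and when only the control libraries were fitted (1.5, adjusted p = 0.0581). The deleted value passed with no filter on low counts (0.88, adjusted p = 0.0423) and with only the deleted libraries fitted (0.86, adjusted p = 0.0193).

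Ccl2 (chr11:82035571-82037453, plus strand), the main monocyte attractant and a ligand of Ccr2, had 79.4 and 112 CPM with oil and 218 and 79.6 with estradiol in control stroma, and 136 and 138 with oil and 155 and 119 with estradiol in deleted stroma. Control estradiol library 1 stood far above the other 7 libraries, and library 2 of that group at the level of control oil. Neither change passed, at 0.64 ± 0.40 (adjusted p = 0.253) in control and -0.01 ± 0.40 (adjusted p = 0.993) in deleted stroma. The control value was -0.26, adjusted p = 0.581 without the first control estradiol library and 1.19, adjusted p = 0.0296 without the second, so its direction rested on library 1. Ccl12, a further Ccr2 ligand of mice, was low, with 3 and 9 reads with oil and 12 and 17 with estradiol in control stroma, and 3 and 9 with oil and 20 and 11 with estradiol in deleted stroma. Its values were 1.06 ± 0.76 and 1.48 ± 0.76, both short of the threshold (adjusted p = 0.319 and 0.181). Ccl1, at the other end of the cluster, had 0 to 3 reads per library.

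A second chromosome 11 cluster, 138.9 kb long, moved in both directions. In chromosomal order it holds Ccl5, Ccl9, Ccl6, Ccl3 and Ccl4. Ccl6 and Ccl9, ligands of Ccr1 found in rodents and made by myeloid cells, were higher after estradiol (Ccl9 short of the threshold), and Ccl3, Ccl4 and Ccl5, attractants of T cells and monocytes, were lower. Ccl6 (chr11:83587882-83593087, minus strand) stood at 5.21 and 4.96 CPM with oil and 14.2 and 15.2 with estradiol in control stroma, and 6.64 and 6.77 with oil and 28.2 and 14.1 with estradiol in deleted stroma. It rose by 1.53 ± 0.36 in control and 1.65 ± 0.35 in deleted stroma on the log2 scale (adjusted p = 0.0131 and 0.0107). Neither control estradiol library could be left out with the control call kept (1.58, adjusted p = 0.0581, and 1.49, adjusted p = 0.0601). The deleted call ended without the first deleted oil library or the second (1.64, adjusted p = 0.0611, and 1.67, adjusted p = 0.0529) and without the first deleted estradiol library (1.07, adjusted p = 0.0936). Ccl9 had 2.37 and 1.77 CPM with oil and 5.31 and 3.53 with estradiol in control stroma, and 2.05 and 3.78 with oil and 7.74 and 4.85 with estradiol in deleted stroma. The groups did not overlap, but 1.09 ± 0.49 and 1.1 ± 0.47 did not pass (adjusted p = 0.123 and 0.114).

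Ccl3 (chr11:83647844-83649355, minus strand), known as MIP-1 alpha, stood at 7.89 and 7.79 CPM with oil and 2.51 and 3.07 with estradiol in control stroma, and 8.38 and 13.9 with oil and 3.78 and 3.07 with estradiol in deleted stroma. It fell in both genotypes, with values of -1.48 ± 0.37 (adjusted p = 0.0176) and -1.7 ± 0.36 (adjusted p = 0.0117). These calls ended without the first control estradiol library (-1.34, adjusted p = 0.114) or the second (-1.63, adjusted p = 0.0656), and in deleted stroma without the second deleted oil library or either deleted estradiol library (adjusted p = 0.0709 to 0.0884, values from -1.84 to -1.28). Ccl4 (chr11:83662584-83664683, plus strand), MIP-1 beta, its neighbour, had 33 and 38.8 CPM with oil and 15.4 and 11.8 with estradiol in control stroma, and 31.9 and 58.3 with oil and 20.9 and 24.7 with estradiol in deleted stroma. The values were -1.4 ± 0.30 (adjusted p = 0.0102) and -0.98 ± 0.30 (adjusted p = 0.0402). Without the second control estradiol library the control call ended (-1.22, adjusted p = 0.0759). The deleted call ended with library totals alone (-0.96, adjusted p = 0.0599) and without the second deleted oil library (-0.48, adjusted p = 0.281), the first deleted estradiol library (-0.86, adjusted p = 0.219) or the second (-1.11, adjusted p = 0.128), or either control estradiol library (adjusted p = 0.0586 and 0.0587).

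Ccl5 (chr11:83525778-83530518, minus strand), RANTES, an attractant of T cells, had 9.31 and 12.4 CPM with oil and 4.19 and 2.61 with estradiol in control stroma, and 9.17 and 15 with oil and 4.86 and 8.9 with estradiol in deleted stroma. Oil libraries were higher in both genotypes. Only the control change passed, at -1.66 ± 0.43 (adjusted p = 0.0201), and it ended without the first control estradiol library (-2.04, adjusted p = 0.060) or the second (-1.36, adjusted p = 0.12). The deleted value was -0.80 ± 0.41 (adjusted p = 0.175), and the difference between genotypes 0.86 ± 0.59 (adjusted p = 1.0). Summed markers of macrophages, a main source of this group, were 191 to 207 CPM with oil and 219 to 257 with estradiol in control stroma, and 213 to 255 with oil and 292 to 360.2 with estradiol in deleted stroma. Of the 14 tested macrophage markers 3 rose (C1qa, Fcgr1 and Cd14) and 1 fell (Lyz2) in control stroma and 1 rose (Cd14) and 1 fell (Cd68) in deleted stroma, with none of the 15 at 0 in all libraries. These counts rest on single libraries: 1 rose and 0 fell in control stroma with either control estradiol library left out, and 0 rose and 0 fell in deleted stroma with 1 deleted estradiol library or the first deleted oil library left out. Over all tested genes 15.8% rose and 14.0% fell in control stroma, and 13.1% rose and 11.2% fell in deleted stroma. These shares also stand beside the counts of the gene lists below. Dendritic cell markers had 269 to 381 summed CPM with oil and 179 to 206 with estradiol in control stroma. In deleted stroma they had 443 to 625 with oil and 183 to 352 with estradiol. Of 6 tested, 2 fell in control (Zbtb46 and H2-Eb1) and 3 in deleted stroma (Zbtb46, H2-Aa and Cd74), with none rising and none of the 9 at 0 in all libraries. In control stroma 0 fell without the first control estradiol library or the first control oil library, and in deleted stroma 0 fell without the second deleted oil library or either deleted estradiol library. Lymphocyte and NK cell markers were low, at 5.13 to 7.57 summed CPM with oil and 2.93 to 3.53 with estradiol in control stroma. In deleted stroma they had 6.16 to 11.8 with oil and 3.56 to 6.84 with estradiol. Only 1 of these 16 markers had enough reads for the test, and it passed in neither genotype. The part of macrophages, dendritic cells, lymphocytes and NK cells in these results was not tested.

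**Figure D3:**
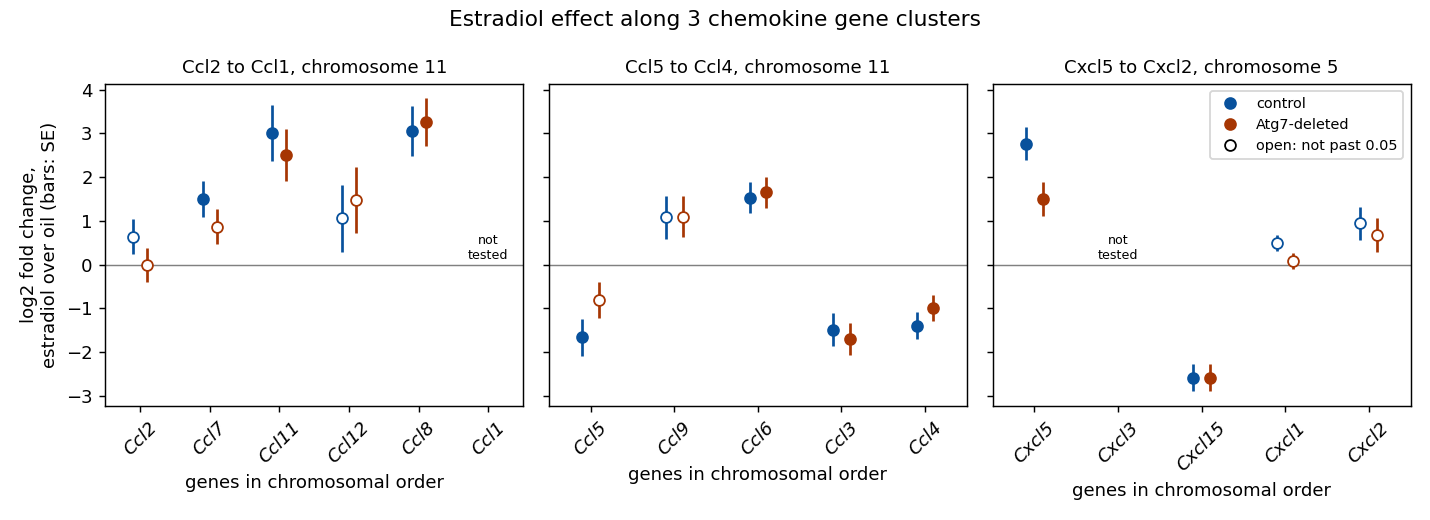
Log2 fold change of estradiol over oil (points with SE bars) for the genes of 3 chemokine clusters in chromosomal order, in control (blue) and Atg7-deleted (brown) stroma, filled where the adjusted p is below 0.05. Values are above 0 for Ccl7 to Ccl8 in the first cluster, and lie on both sides of 0 in the other 2.

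Neutrophil attractants of the chromosome 5 cluster were also divided. In order it holds Cxcl5, Cxcl3, Cxcl15, Cxcl1 and Cxcl2 within 146.6 kb. Cxcl5 (chr5:90759360-90761624, plus strand), a ligand of Cxcr2 made by epithelia, stood at 6.94 and 3.36 CPM with oil and 26.3 and 44.7 with estradiol in control stroma, and 4.9 and 5.36 with oil and 15.3 and 13.7 with estradiol in deleted stroma. It rose by 2.77 ± 0.38 in control and 1.5 ± 0.38 in deleted stroma (adjusted p = 0.0018 and 0.0228). The control value was 3.41, adjusted p = 0.00117 without the first control oil library. The deleted call ended without each of the 4 deleted libraries in turn (1.42 to 1.58, adjusted p = 0.0823 to 0.122). Granulocyte markers, the cells drawn by these ligands, had 15.6 to 28.1 summed CPM with oil and 124 to 194 with estradiol in control stroma, and 15.1 to 20.2 with oil and 91.6 to 106 with estradiol in deleted stroma. Most of this was Ltf, lactoferrin, which uterine epithelium also makes, at 144 ± 62.7 CPM in control estradiol, whereas the neutrophil genes S100a8 and S100a9 were at 4.9 ± 6.71 and 3.99 ± 5.42. Of 6 tested granulocyte markers 1 rose in control stroma (Ltf), and 1 rose (Ltf) and 1 fell (Prg2) in deleted stroma. The Ltf value in control stroma was 5.43, adjusted p = 5.75e-04 without the first control oil library and 2.76, adjusted p = 0.0021 without the second. In deleted stroma the Ltf call was lost without the first deleted oil library (3.33, adjusted p = 0.0556) or the second (2.82, adjusted p = 0.0703) or the second deleted estradiol library (2.68, adjusted p = 0.0735), and the Prg2 call without any 1 of the 4 deleted libraries (adjusted p = 0.065 to 0.165). The part of granulocytes was not tested.

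Cxcl15 (chr5:90794534-90803067, plus strand), lungkine, a neutrophil attractant of epithelia, moved the other way. It had 65.3 and 39.1 CPM with oil and 9.92 and 7.53 with estradiol in control stroma, and 65.1 and 46.6 with oil and 9.36 and 9.22 with estradiol in deleted stroma. No estradiol library reached an oil library. The fall was -2.58 ± 0.31 (adjusted p = 0.0011) in control and -2.59 ± 0.31 (adjusted p = 0.00154) in deleted stroma, the smallest adjusted p among the chemokine ligands in both. In both oil groups library 1, with more epithelium markers, had more Cxcl15. In control estradiol library 1, with fewer of them, had more Cxcl15. In deleted estradiol the libraries stood about level, at 52 and 57 reads. The part of epithelial cells in the Cxcl15 result was not tested.

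Cxcl1 (chr5:90891241-90893115, plus strand) and Cxcl2 (chr5:90903871-90905938, plus strand), the main Cxcr2 ligands of mouse inflammation, whose promoters are printed above, did not pass in either genotype. Cxcl1 was at 256 and 251 CPM with oil and 348 and 364 with estradiol in control stroma, and 295 and 249.9 with oil and 328 and 252 with estradiol in deleted stroma. Control estradiol lay above control oil, whereas the deleted groups overlapped, with values of 0.49 ± 0.19 (adjusted p = 0.0746) and 0.09 ± 0.19 (adjusted p = 0.76). Cxcl2 was at 32 and 83.6 CPM with oil and 109 and 113 with estradiol in control stroma, and 67.3 and 87 with oil and 146 and 101 with estradiol in deleted stroma. Its values were 0.94 ± 0.39 (adjusted p = 0.0941) and 0.68 ± 0.38 (adjusted p = 0.219). Scaling by library totals alone brought Cxcl1 past the threshold in control stroma (0.56, adjusted p = 0.0426), and Cxcl2 passed there with no filter on low counts (0.95, adjusted p = 0.021) and without the second control oil library (1.76, adjusted p = 0.00216). In deleted stroma Cxcl2 passed without the first control oil library (0.68, adjusted p = 0.033) or the second (0.69, adjusted p = 0.0327) and with only the deleted libraries fitted (0.67, adjusted p = 0.0407). Cxcl3, with the same NF-kB match, had 0 to 4 reads per library.

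The interferon-inducible T cell attractants showed no call. Cxcl10 (chr5:92346638-92348889, minus strand), a Cxcr3 ligand, stood at 59.3 and 138 CPM with oil and 129 and 76.1 with estradiol in control stroma, and 70.8 and 74.8 with oil and 102 and 77.2 with estradiol in deleted stroma. The spread within the control groups was as large as any difference between groups, and the changes were 0.05 ± 0.38 (adjusted p = 0.931) and 0.30 ± 0.38 (adjusted p = 0.599). The control value was -0.40, adjusted p = 0.361 without the first control oil library and 0.76, adjusted p = 0.102 without the second. Cxcl9 and Cxcl11, the other Cxcr3 ligands, had 1 to 18 and 0 to 8 reads per library. Their receptor Cxcr3 was not tested for want of reads. Irf1, a transcription factor that binds interferon response elements, fell in both genotypes, with -0.81 ± 0.20 (adjusted p = 0.0154) and -0.74 ± 0.20 (adjusted p = 0.0257). Its calls ended without the first control estradiol library (-0.63, adjusted p = 0.127), with only the control libraries fitted (-0.83, adjusted p = 0.0569), and without any 1 of the 4 deleted libraries (adjusted p = 0.0656 to 0.174).

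Among the chemokines made at rest, Ccl21a fell while Cxcl12 and Cxcl14 did not pass. Ccl21a (chr4:42772860-42773993, minus strand), made by lymphatic endothelium to draw dendritic cells and T cells through Ccr7, stood at 120.2 and 131 CPM with oil and 63.4 and 62.1 with estradiol in control stroma, and 150.0 and 109 with oil and 37.6 and 55.8 with estradiol in deleted stroma. Estradiol libraries lay below all oil libraries. The changes were -1.0 ± 0.23 (adjusted p = 0.0131) in control and -1.47 ± 0.24 (adjusted p = 0.00398) in deleted stroma. Its control call did not hold without the first control estradiol library (-1.01, adjusted p = 0.0794) or the second (-0.98, adjusted p = 0.0767). Markers of lymphatic endothelium moved with it, at 247 to 309.8 summed CPM with oil and 89.7 to 108 with estradiol in control stroma, and 197 to 357 with oil and 101 to 110.3 with estradiol in deleted stroma. Of the 5 markers 3 fell and 0 rose in control stroma, with the same counts in deleted stroma, and none was at 0. They were Lyve1 (-1.72 ± 0.37 and -1.49 ± 0.37), Mmrn1 (-1.3 ± 0.31 and -1.17 ± 0.31) and Reln (-1.96 ± 0.28 and -2.1 ± 0.28). The Lyve1 and Mmrn1 calls were lost without the second control estradiol library (-1.53, adjusted p = 0.0746, and -1.0, adjusted p = 0.0888) and without the first deleted oil library (-0.86, adjusted p = 0.128, and -0.94, adjusted p = 0.135) or either deleted estradiol library. The part of lymphatic cells in the Ccl21a result was not tested.

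Cxcl12 (chr6:117168535-117181367, plus strand), the ligand of Cxcr4 and a product of stromal cells, had 195 and 299.9 CPM with oil and 168 and 176 with estradiol in control stroma, and 205 and 290.2 with oil and 173 and 159 with estradiol in deleted stroma. All oil libraries were higher than all estradiol libraries, with values of -0.52 ± 0.24 (adjusted p = 0.131) and -0.57 ± 0.24 (adjusted p = 0.113). The control value passed without the first control oil library (-0.77, adjusted p = 0.0288), and the deleted value without the first control oil library (-0.57, adjusted p = 0.0383) or the second (-0.57, adjusted p = 0.0391) and with only the deleted libraries fitted (-0.58, adjusted p = 0.0469). Cxcl14 (chr13:56288643-56296551, minus strand), made at rest by epithelia and fibroblasts, had 35.5 and 28.7 CPM with oil and 27.7 and 24.3 with estradiol in control stroma, and 56.6 and 57.7 with oil and 22.1 and 46.1 with estradiol in deleted stroma. Its values were -0.31 ± 0.31 (adjusted p = 0.488) and -0.74 ± 0.31 (adjusted p = 0.108), and the second passed without the second deleted estradiol library (-1.36, adjusted p = 0.031). The B cell attractant Cxcl13 had 0 to 6 reads per library.

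The 2 chemokines anchored in the membrane were lower after estradiol. Cx3cl1 (chr8:94772009-94782427, plus strand), fractalkine, which binds monocytes through Cx3cr1, was at 229 and 468 CPM with oil and 99.9 and 125 with estradiol in control stroma, and 273 and 384 with oil and 80.2 and 106 with estradiol in deleted stroma. Every oil library was higher than every estradiol library. The fall was -1.63 ± 0.34 (adjusted p = 0.00829) and -1.82 ± 0.34 (adjusted p = 0.00684), and it did not pass without the first control estradiol library (-1.47, adjusted p = 0.0743) or the first deleted estradiol library (-1.63, adjusted p = 0.0803). In both oil groups library 2, with fewer epithelium markers, had more Cx3cl1. In both estradiol groups library 2, with more of these markers, also had more Cx3cl1. The part of epithelial cells in the Cx3cl1 result was not tested. Cxcl16 (chr11:70453983-70459984, minus strand), the ligand of Cxcr6, was at 72.6 and 40.9 CPM with oil and 26.5 and 22.1 with estradiol in control stroma, and 54.2 and 40.3 with oil and 18.5 and 29.3 with estradiol in deleted stroma. Here library 1 was the higher in both oil groups, whereas after estradiol it was the higher in control and the lower in deleted stroma. Only the control change passed, at -1.22 ± 0.32 (adjusted p = 0.0221), against -0.98 ± 0.33 (adjusted p = 0.0562) in deleted stroma, with a difference of 0.24 ± 0.46 (adjusted p = 1.0). In control stroma the call was lost without the first control oil library (-0.72, adjusted p = 0.115), the first control estradiol library (-1.35, adjusted p = 0.0857) or the second (-1.09, adjusted p = 0.124). The deleted value passed with DESeq2 (-1.01, adjusted p = 0.0285), with no filter on low counts (-0.97, adjusted p = 0.016), with only the deleted libraries fitted (-0.99, adjusted p = 0.0151) and without the first control oil library (-0.98, adjusted p = 0.0169) or the second (-0.98, adjusted p = 0.0168).

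**Figure D4:**
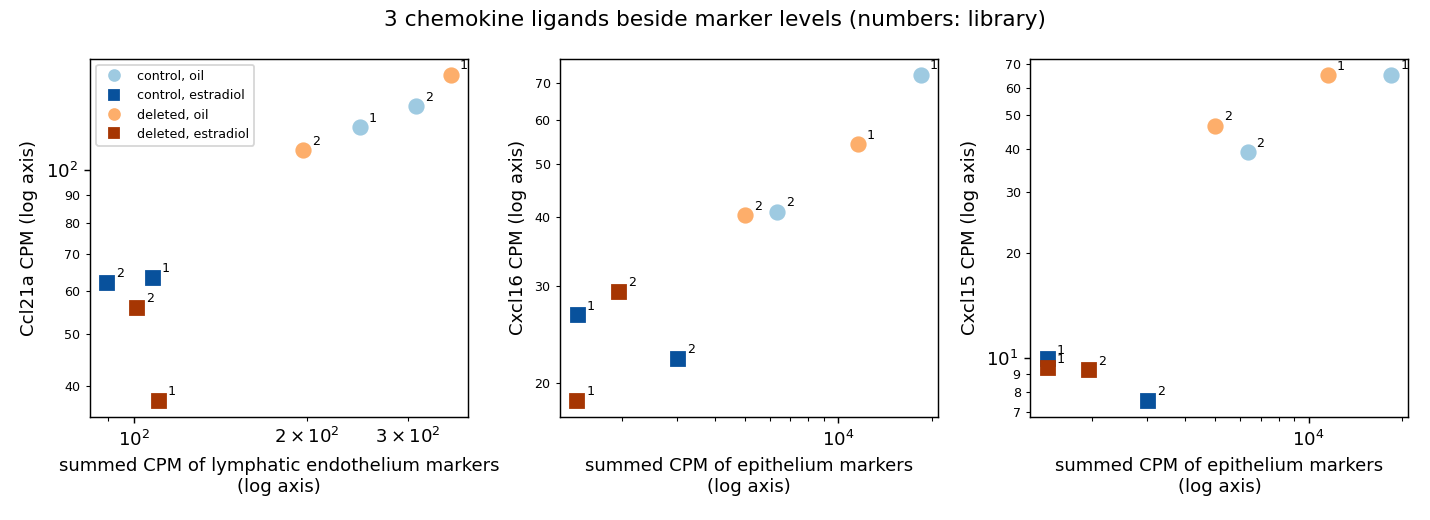
CPM of Ccl21a against the summed CPM of 5 lymphatic endothelium markers, and of Cxcl16 and Cxcl15 against that of 15 epithelium markers (log axes, 1 symbol per library, numbered as in the text). Oil and estradiol libraries form separate groups in all 3 panels, so no correlation was computed over them.

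Of the chemokines of mucosal surfaces, Ccl28 rose in both genotypes, Cxcl17 in deleted and Ccl20 in control stroma, and Ccl25 passed in neither. Ccl28 (chr13:119623819-119654359, plus strand), which draws antibody-secreting cells to mucosae through Ccr10, had 11 and 3 reads with oil and 137 and 83 with estradiol in control stroma, and 10 and 6 with oil and 86 and 86 with estradiol in deleted stroma. This is 1.74 and 0.531 CPM with oil and 19.1 and 12.8 with estradiol in control stroma, and 1.58 and 0.945 with oil and 15.5 and 13.9 with estradiol in deleted stroma. It rose by 3.76 ± 0.49 in control and 3.52 ± 0.48 in deleted stroma on the log2 scale (adjusted p = 0.00137 and 0.00236), the largest rise among tested members with reads in every group. The ratio of reads was 13.8 (95% counting interval 8.04 to 25.6) in control and 11.6 (95% counting interval 6.95 to 20.8) in deleted stroma, where the interval covers counting error alone. The control value was 4.89, adjusted p = 0.0012 without the first control oil library and 3.16, adjusted p = 0.00191 without the second. Over the same comparisons, markers of epithelium fell, 8 of 15 in control and 6 in deleted stroma with none rising (median -1.46 and -1.49). Those counts were 0 in control stroma without the first control estradiol library and 5 without the second. In deleted stroma they were 0 without the first deleted oil library or the first deleted estradiol library, 2 without the second deleted estradiol library, and 9 with only the deleted libraries fitted or with no filter on low counts. The part of epithelial cells in the Ccl28 result was not tested.

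Cxcl17 (chr7:25400053-25412886, minus strand), a mucosal attractant of myeloid cells, had 4.42 and 1.42 CPM with oil and 6.57 and 14.1 with estradiol in control stroma, and 0.79 and 0.788 with oil and 5.22 and 11.5 with estradiol in deleted stroma. It rose in deleted stroma, at 3.38 ± 0.72 (adjusted p = 0.0117), and stood just outside the threshold in control stroma, at 1.8 ± 0.60 (adjusted p = 0.051). The difference was 1.58 ± 0.96 (adjusted p = 1.0). The control value passed without the first control oil library (2.87, adjusted p = 0.0199), with DESeq2 (1.78, adjusted p = 0.0289), with library totals alone (1.88, adjusted p = 0.0417) and with no filter on low counts (1.79, adjusted p = 0.010), and was 1.18, adjusted p = 0.16 without the second control oil library and 1.15, adjusted p = 0.284 without the second control estradiol library. The deleted call ended without the first deleted oil library (3.38, adjusted p = 0.0665) or the second (3.38, adjusted p = 0.0609) and without the second deleted estradiol library (2.7, adjusted p = 0.0808).

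Ccl20 (chr1:83116766-83119167, plus strand), the ligand of Ccr6, had no read in any of the 4 oil libraries, 25 and 18 reads in control estradiol and 15 and 1 in deleted estradiol. Set against a floor of 3 reads over the oil group it was at least 12.6-fold higher in control and at least 5.76-fold higher in deleted stroma. With no read in oil, Ccl20 passed the read filter only through its estradiol libraries, so a fall could not have been found. The rise passed in control stroma (adjusted p = 0.0282) and not in deleted stroma (adjusted p = 0.0752), where 15 of 16 reads came from library 1. Leaving out any 1 of the 4 control libraries ended the control call (adjusted p = 0.0507 to 0.108). The limit for deleted stroma rests on the first deleted estradiol library, without which 1 read was left (adjusted p = 0.412). In deleted stroma the rise passed without the second deleted estradiol library (adjusted p = 0.0432), without the first control oil library or the second (adjusted p = 0.048 and 0.0481), with DESeq2 (adjusted p = 0.0195) and with no filter on low counts (adjusted p = 0.0186).

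Ccl27a (chr4:41769467-41774247, minus strand), known from skin as a further ligand of Ccr10, was lower, unlike Ccl28. It had 8.68 and 16.1 CPM with oil and 2.37 and 4.15 with estradiol in control stroma, and 10.7 and 12 with oil and 2.88 and 3.24 with estradiol in deleted stroma. Oil and estradiol libraries did not overlap, and the values were -1.92 ± 0.41 (adjusted p = 0.00923) and -1.89 ± 0.42 (adjusted p = 0.0129). In control stroma this did not hold without the first control estradiol library (-1.56, adjusted p = 0.0778). The deleted call ended without the second deleted oil library (-1.8, adjusted p = 0.0548) and without the first deleted estradiol library (-1.8, adjusted p = 0.102) or the second (-1.97, adjusted p = 0.077). Its near copy Ccl27b, at -1.59 ± 0.85 and -1.51 ± 0.78, did not pass (adjusted p = 0.185 and 0.183). Of the runs of 50 bases in the last 500 bases of Ccl27b transcripts, 61.4% occur in Ccl27a, so reads of this pair cannot be told apart with certainty. Apart from the Ccl21 copies, no other pair of chemokine ligands with GENCODE transcripts shared such a run. Ccl25, the ligand of Ccr9, had 5 to 20 reads per library, and its values of 0.49 ± 0.72 and 0.01 ± 0.75 did not pass (adjusted p = 0.642 and 0.994), the second being too near 0 to have a stable sign.

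The remaining chemokines were near the limit of detection. Xcl1, lymphotactin, made by T and NK cells, stood at 2.52 and 1.24 CPM with oil and 1.12 and 1.23 with estradiol in control stroma, and 5.37 and 4.88 with oil and 2.34 and 1.78 with estradiol in deleted stroma. Its values were -0.69 ± 0.54 (adjusted p = 0.361) and -1.31 ± 0.47 (adjusted p = 0.0732), and the second passed with only the deleted libraries fitted (-1.32, adjusted p = 0.0457). Ccl17, which shares the receptor Ccr4 with Ccl22, had 6 and 5 reads with oil and 2 and 1 with estradiol in control stroma, and 4 and 7 with oil and 0 and 2 with estradiol in deleted stroma. The ratio of oil to estradiol reads was 4.18 (95% counting interval 1.1 to 23.3) in control and 5.09 (95% counting interval 1.11 to 47.3) in deleted stroma. Ccl22 had 1 to 19 reads and the eosinophil attractant Ccl24 had 0 to 3 reads per library.

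Atg7 deletion changed no chemokine ligand past the threshold, in oil, after estradiol or as a difference between the 2 estradiol effects. Of all 13347 genes 0.0% passed in oil, 0.0% after estradiol and 0.0% for the difference. At an unadjusted p below 0.05 edgeR gave 3 members in oil, 3 after estradiol and 1 for the difference, beside 2.54%, 3.02% and 1.57% of all genes, and DESeq2 gave 3, 3 and 1, with none past its adjusted threshold. The genotype comparison in oil uses the same oil libraries as the estradiol comparisons above.

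In oil the 3 were Xcl1, Cxcl14 and Cxcl17. Xcl1 had 16 and 7 reads in control oil and 34 and 31 in deleted oil, with no overlap, and 8 and 8 against 13 and 11 after estradiol. Its values were 1.42 ± 0.48 in oil and 0.80 ± 0.54 after estradiol (adjusted p = 1.0 for both). Without the first control oil library the value in oil was 2.07, adjusted p = 0.915. Cxcl14 was at 35.5 and 28.7 CPM in control oil and 56.6 and 57.7 in deleted oil, which is 0.83 ± 0.31 on the log2 scale (adjusted p = 1.0). Cxcl17 was at 4.42 and 1.42 CPM against 0.79 and 0.788, a value of -1.88 ± 0.78 (adjusted p = 1.0) that was -0.79, adjusted p = 0.924 without the first control oil library and -2.48, adjusted p = 0.258 without the second. The first control oil library had the most epithelium markers, whose part in the Cxcl17 value was not tested.

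After estradiol the 3 were Cxcl5, Ccl4 and Ccl5. Cxcl5 was at 26.3 and 44.7 CPM in control and 15.3 and 13.7 in deleted stroma, without overlap, whereas in oil both genotypes lay between 3.36 and 6.94. The difference after estradiol was -1.29 ± 0.35 (adjusted p = 1.0). For the estradiol effect itself the difference between genotypes was -1.27 ± 0.54 (adjusted p = 1.0), and -1.92, adjusted p = 0.999 without the first control oil library. Ccl4 and Ccl5 leaned the other way, at 0.74 ± 0.31 and 1.01 ± 0.44 (adjusted p = 1.0 for both). For Cxcl15 the values were 0.10 ± 0.28 in oil and 0.09 ± 0.32 after estradiol, and for Ccl28 0.12 ± 0.60 and -0.12 ± 0.38, each smaller than its SE.

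Libraries of the 2 genotypes did not overlap for 7 higher and 1 lower of the 27 tested members in oil and for 4 higher and 4 lower after estradiol. In oil Xcl1, Ccl2, Ccl7, Ccl11, Ccl6, Ccl3 and Cxcl14 were higher and Cxcl17 lower. After estradiol Xcl1, Ccl8, Ccl4 and Ccl5 were higher and Ccl20, Ccl21a, Cxcl5 and Cxcl1 lower. Over all genes 12.9% were higher and 11.6% lower without overlap in oil, and 16.0% and 18.2% after estradiol. The median log2 fold change of the 27 with deletion was 0.13 in oil and 0.09 after estradiol, beside -0.01 and -0.01 over all genes.

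**Figure D5:**
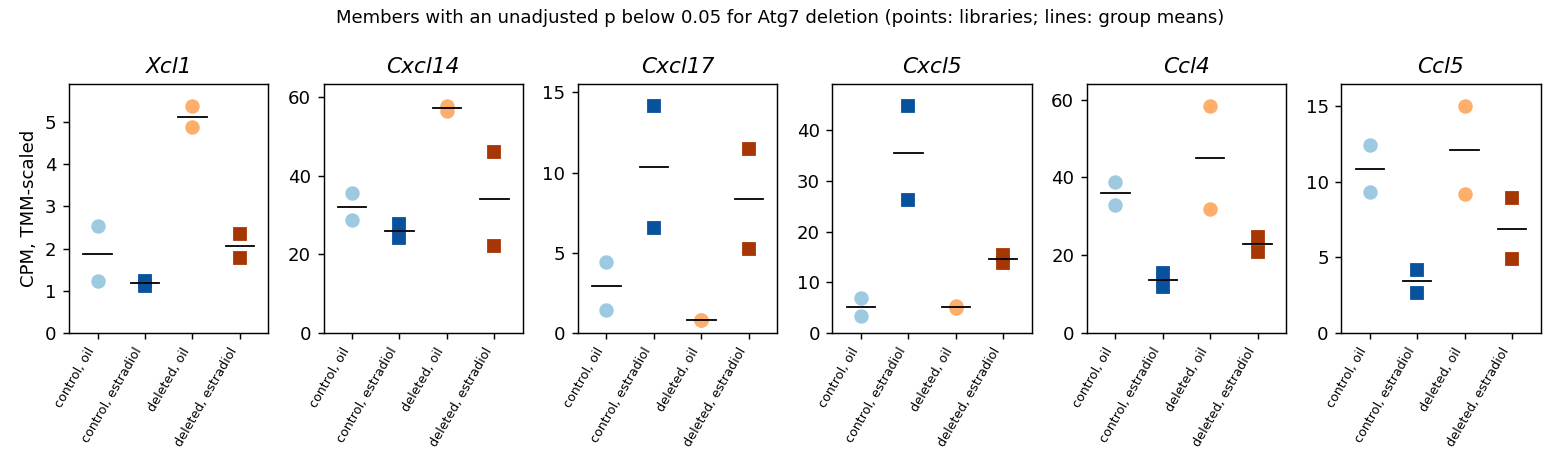
CPM (linear axes from 0) of the 6 chemokine ligands with an unadjusted p below 0.05 for Atg7 deletion in oil (Xcl1, Cxcl14, Cxcl17) or after estradiol (Cxcl5, Ccl4, Ccl5), with 1 point per library and a line at each group mean. Deleted oil lies above control oil for Xcl1 and Cxcl14, and deleted estradiol below control estradiol for Cxcl5.

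The receptors of these ligands had few reads, except Cxcr4. Of 18 chemokine receptors 9 were tested, and Ccr8, Ccr9, Cxcr1 and Cxcr5 had no read in any library. Cxcr4, the receptor of Cxcl12, was at 113 and 116 CPM with oil and 73.2 and 58.9 with estradiol in control stroma, and 105 and 131 with oil and 56.5 and 60.2 with estradiol in deleted stroma. It fell in both genotypes, by values of -0.79 ± 0.19 (adjusted p = 0.0142) and -1.01 ± 0.19 (adjusted p = 0.00684). These calls ended without the second control estradiol library (-0.64, adjusted p = 0.105), with only the control libraries fitted (-0.80, adjusted p = 0.0523) and without the first deleted estradiol library (-0.96, adjusted p = 0.0742) or the second (-1.05, adjusted p = 0.0539). Ccr3, the eotaxin receptor, was not tested, with 1 and 0 reads with oil and 5 and 3 with estradiol in control stroma, and 4 and 0 with oil and 13 and 5 with estradiol in deleted stroma. Ccr2, the receptor of Ccl2, stood at 0.74 ± 0.43 (adjusted p = 0.22) and -0.25 ± 0.39 (adjusted p = 0.664). Of 5 atypical receptors, which take up chemokines without signalling through G proteins, 1 fell in control and none passed in deleted stroma. The one that fell was Ackr2, a scavenger of Ccl chemokines, at -2.09 ± 0.67 (adjusted p = 0.0436) against -1.74 ± 0.63 (adjusted p = 0.0744). That call ended without any 1 of the oil libraries or of the control estradiol libraries, with the replicate block and with library totals alone (adjusted p = 0.0514 to 0.168).

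Of 25 genes of NF-kB and cytokine signalling, all tested, 2 rose (Il1r1 and Tnfrsf1a) and 8 fell with estradiol in control stroma, and 2 rose (Tnfrsf1a and Il17ra) and 6 fell in deleted stroma. The median was -0.35 and -0.42, beside 0.01 and 0.02 over all tested genes. Of all tested genes 15.8% rose and 14.0% fell in control stroma, and 13.1% rose and 11.2% fell in deleted stroma. Rela, the main activating subunit of NF-kB, fell from 944 ± 30.3 to 436 ± 11.3 CPM in control and from 932 ± 114 to 392 ± 27.1 in deleted stroma (-1.12 ± 0.17, adjusted p = 0.00283, and -1.25 ± 0.18, adjusted p = 0.00257). Icam1, an adhesion molecule that NF-kB drives, fell by values of -0.91 ± 0.25 (adjusted p = 0.0238) and -1.39 ± 0.25 (adjusted p = 0.00607), the second call ending without the first deleted estradiol library (-1.35, adjusted p = 0.0666) or the second (-1.41, adjusted p = 0.0543). Without the first deleted estradiol library 0 rose and 1 fell in deleted stroma, and 0 rose and 2 fell without the second. With either deleted oil library left out 0 rose and 3 fell. In control stroma 0 rose and 3 fell with either control estradiol library left out, and 0 rose and 5 fell with only the control libraries fitted. Of the chemokine ligands with an NF-kB match, Ccl27a fell in both genotypes and Ccl20 rose in control stroma. Cxcl1, Cxcl2, Cxcl10 and Ccl9 were not called in either genotype, and Cxcl3 was not tested. The called genes Ccl4, Ccl5, Ccl7, Ccl11, Cxcl5, Cxcl16 and Cxcl17 had no promoter window and were not searched for this match.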

How the data were processed

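The authors deposited 1 file of raw read counts per gene symbol for each library (whole numbers with differing totals). Per the labels, 500 ng of Trizol-extracted total RNA per library went into a Lexogen QuantSeq kit. Bowtie2, edgeR and the build mm10 appear in the submitters' processing notes, with no version or role. The sources used here name neither a read counter nor an annotation.

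Each file had 23282 lines for 23238 symbols. Where a symbol had several lines (35 symbols), its line with most reads was used, which left out 0.0973% of counts. Genes kept by filterByExpr (edgeR, count 10, total 15) numbered 13347 and held 99.9% of counts. They were tested with the quasi-likelihood test of edgeR 4.0.16 (R 4.3.3), with TMM factors (0.918 to 1.03) and 1 mean per group over all 8 libraries. Benjamini-Hochberg adjustment covered all 13347 genes, with a threshold of 0.05, and SEs came from fold changes and test statistics. The test was checked on simulated data. Counting intervals and floors cover counting error only. Gene positions are from GENCODE M21 (mm10), promoter windows from RefSeq (GRCm38.p6).

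Members that passed a test or reached 10 CPM in a group were given in every library, and up to 4 called genes per list and comparison were eligible for naming. Ccl9, Ccl12, Ccl25, Ccl27b, Xcl1 and the untested members and receptors were named to account for every member. The members and lists were chosen with earlier results of these data known. Protein sequences were not used here, and results for some listed genes are not reported here. The 16 alternatives (1 with DESeq2 1.42.0) are described in the closing part.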

Additional observations from a re-analysis of the deposited data

How the results depend on the processing

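The 16 alternatives were 2 other scalings, no filter on low counts, DESeq2, a replicate block, summed lines of repeated symbols, summed Ccl21 copies, only the 2 groups compared, and leaving out each of the 8 libraries. The 8 that changed the fit but not the libraries gave 14 to 17 chemokine ligands called for estradiol in control stroma (15 as reported) and 11 to 17 in deleted stroma (12 as reported). Leaving out 1 library gave 5 to 16 calls, namely 5 to 15 in control stroma and 5 to 16 in deleted stroma. With 1 library left in a group, that library is assumed to vary like the others. For deletion in oil, deletion after estradiol and the difference of estradiol effects the count was 0 throughout. With the replicate block there were 15 and 12 calls, the 15 and 12 reported ones. The labels do not say that a number marks a shared animal or day, and deviations of same-numbered libraries correlated from -0.26 to 0.55 between groups, so the numbers were not taken as pairs.

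The alternatives were run for the estradiol effects of all 27 tested chemokine ligands and for the genotype values given in the text. Among the estradiol effects the direction turned for Ccl2, Cxcl1, Cxcl10 and Ccl25, in comparisons where they were not called. For Ccl2 in control stroma the log2 fold change was -0.26 without the first control estradiol library. For Ccl2 in deleted stroma, reported at -0.01, it was 0.0219 with library totals alone, 0.00162 with no filter, 0.00532 without the second deleted oil library and 0.18 without the second deleted estradiol library. Cxcl1 in deleted stroma was -0.02 without the second deleted oil library and -0.11 without the first deleted estradiol library. Cxcl10 in control stroma was -0.40 without the first control oil library and -0.37 without the first control estradiol library. Ccl25 in deleted stroma, reported at 0.01, was -0.0179 with the DESeq2 size factors, -0.00891 with DESeq2, -0.0312 with the replicate block and -0.00492 with only the deleted libraries, and ran from -1.2 to 0.69 over the fits that left out 1 library. Genotype values near 0 turned as well when 1 library was left out, running from -0.25 to 0.55 for Cxcl15 in oil, -0.10 to 0.30 for Cxcl15 after estradiol, -0.48 to 1.25 for Ccl28 in oil and -0.38 to 0.20 for Ccl28 after estradiol. So did the differences of estradiol effects, from -1.1 to 0.0109 for Ccl7 and -0.27 to 0.62 for Cxcl16. Over the 8 fits that left out 1 library, Ccl2 ran from -0.26 to 1.19 in control and from -0.20 to 0.18 in deleted stroma, Cxcl1 in deleted stroma from -0.11 to 0.27 and Cxcl10 in control stroma from -0.40 to 0.76. The cause was not tested. No scaling moved the median of all genes by more than 0.1 on the log2 scale. For the 10 untested members, a difference was not detectable at this depth.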

Other observations

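Chemokines that carry other symbols, and proteases that cut chemokines, were measured as well. Pf4, platelet factor 4 (also Cxcl4), which macrophages make too, was at 5.52 and 3.72 CPM with oil and 14.7 and 5.69 with estradiol in control stroma, and 8.85 and 7.25 with oil and 12.2 and 9.54 with estradiol in deleted stroma, with estradiol values of 1.14 ± 0.46 (adjusted p = 0.0908) and 0.43 ± 0.44 (adjusted p = 0.502). Ppbp, the platelet chemokine also called Cxcl7, was at 6.43 ± 4.18 CPM in control oil and 1.87 ± 1.26 in control estradiol (-1.78 ± 0.79, adjusted p = 0.117). Gm1987 had reads nearly equal to those of Ccl21a in every library (762 and 741 against 762 and 741 in control oil), so the 2 symbols were not taken as separate measurements.

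Of 8 chemokine-cutting proteases 6 were tested, and 1 fell (Dpp4) in control stroma, and 1 fell (Dpp4) and 2 rose (Adam17 and Mmp14) in deleted stroma. Dpp4, which clips the front end of Cxcl12, Ccl11 and other chemokines, fell in both genotypes. It was at 48.6 and 21.4 CPM with oil and 3.91 and 10.8 with estradiol in control stroma, and 39.7 and 27.4 with oil and 5.04 and 8.57 with estradiol in deleted stroma, with -2.26 ± 0.53 (adjusted p = 0.013) and -2.29 ± 0.53 (adjusted p = 0.0158). The calls ended without the first control estradiol library (-1.7, adjusted p = 0.0866) and without the first deleted oil library (-2.0, adjusted p = 0.0746) or the first deleted estradiol library (-1.96, adjusted p = 0.134) or the second (-2.72, adjusted p = 0.0669), and the control value was -3.15, adjusted p = 0.0212 without the second control estradiol library and -1.53, adjusted p = 0.0471 without the first control oil library. Adam17, which with Adam10 sheds Cx3cl1 and Cxcl16 from the membrane, rose in deleted stroma (1.53 ± 0.40, adjusted p = 0.0235) and stood at 0.52 ± 0.39 (adjusted p = 0.335) in control stroma. That call ended without any 1 of the 4 deleted libraries (adjusted p = 0.0625 to 0.151). Mmp14, a membrane-bound metalloprotease, was at 0.73 ± 0.20 (adjusted p = 0.0276) in deleted and 0.52 ± 0.20 (adjusted p = 0.0728) in control stroma, and its call ended without the first deleted oil library (0.81, adjusted p = 0.0858) or the second (0.65, adjusted p = 0.134) or the first deleted estradiol library (0.48, adjusted p = 0.216). The difference between the genotypes in Adam17 was 1.01 ± 0.55 (adjusted p = 1.0).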
